A study of Mus musculus with 8 samples.

Results

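The epiblast and pluripotency factors described here are 10 genes chosen by name: Pou5f1, Sox2, Nanog, Klf4, Klf2, Esrrb, Prdm14, Tfcp2l1, Zfp42 and Tdgf1. They are 10 of the 22810 genes of an allele-specific count table of the mouse blastocyst. RNA was sequenced from 8 single E3.5 blastocysts, that is, embryos at embryonic day 3.5, just before implantation. The 3 forward embryos had a C57BL/6 (B6) mother and a Mus musculus castaneus (cast) father, and the 5 reverse embryos had a cast mother and a B6 father. All 8 came from natural matings and were lysed whole without culture, were untreated, and were not matched for sex. A read was counted when it covered a position that differs between the strains, so each count belongs to the B6 or the cast allele, and in each cross to the mother or the father. The reciprocal crosses address which genes are expressed by parental origin and which by strain of the allele.

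At this stage the embryo holds an outer trophectoderm, which forms placenta, and an inner cell mass that separates into epiblast, the founder of the body, and primitive endoderm, which forms yolk sac. Pou5f1 (also called Oct4), Sox2 and Nanog encode the transcription factors at the core of the pluripotency network. Klf4, Klf2, Esrrb, Tfcp2l1 and Prdm14 encode factors of the naive state, the form of pluripotency found in the preimplantation epiblast. Zfp42 encodes REX1, widely used as a marker of naive cells, and Tdgf1 encodes CRIPTO, a cell-surface co-receptor for NODAL. A whole blastocyst mixes the 3 lineages, and fewer cells of a type and less RNA per cell cannot be told apart in it. Klf4, Esrrb and Tfcp2l1 are also transcribed in trophectoderm or its stem cells, so the members are not a pure readout of the epiblast.

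The embryos held 1060063 to 1632695 reads over strain-specific positions, and 57.4 to 58.3% of each embryo's reads came from the B6 allele. Markers of the other lineages were detected in all 8 embryos. The summed level of 18 trophectoderm genes spanned 11154 to 11997 CPM (reads per 1000000 strain-specific reads of the embryo) in the forward embryos and 4374 to 17477 in the reverse embryos. Summed reads of 12 macrophage genes were 885 CPM in forward embryo 1, 42.5 and 58.7 in the other forward embryos, and 3.77 to 6.01 in the reverse embryos. Each result that rests on forward embryo 1 is therefore also given without it where the call changed, and the part of macrophage RNA in the members' levels was not tested. The labels do not say whether embryos of a cross shared a litter. P-values measure the spread between these embryos or, in the allele fits, between their 16 allele libraries. Those fits leave out the pairing of an embryo's alleles unless a term for each embryo is named.

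The members differed widely in depth, which is the number of allele-assigned reads summed over the 8 embryos. Tfcp2l1 had 13253 such reads, Tdgf1 5417, Esrrb 1544, Zfp42 1191 and Nanog 943. Klf4 had 554, Prdm14 279, Sox2 267 and Pou5f1 74. Klf2 had a single read, from the cast (maternal) allele of reverse embryo 5, and 0 in the other embryos; it was not tested. A count of 0 allows up to 3 reads in a library, for counting error only. These totals do not rank the genes by expression, because the number of strain-specific positions in each gene was not given in the sources used here, and comparisons here are between alleles or embryos of the same gene.

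Tdgf1 and Klf4 are the members whose alleles differed by strain, and Nanog had the largest difference between the crosses. Their B6 reference promoters are shown for that reason, each as the 250 bases before the RefSeq start site in GRCm38.p6 (mm10), printed 5′ to 3′ on the gene's own strand. The windows are chr9:110946159-110946408 on the minus strand for Tdgf1, chr4:55532476-55532725 on the minus strand for Klf4 and chr6:122707239-122707488 on the plus strand for the more upstream of the Nanog starts. Capitals mark the run TTTGCATTACAATG in Nanog.
Tdgf1: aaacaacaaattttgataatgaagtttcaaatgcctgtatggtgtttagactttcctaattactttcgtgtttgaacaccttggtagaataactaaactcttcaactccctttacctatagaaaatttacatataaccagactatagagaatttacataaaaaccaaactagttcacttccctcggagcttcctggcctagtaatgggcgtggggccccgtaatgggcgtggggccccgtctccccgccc
Klf4: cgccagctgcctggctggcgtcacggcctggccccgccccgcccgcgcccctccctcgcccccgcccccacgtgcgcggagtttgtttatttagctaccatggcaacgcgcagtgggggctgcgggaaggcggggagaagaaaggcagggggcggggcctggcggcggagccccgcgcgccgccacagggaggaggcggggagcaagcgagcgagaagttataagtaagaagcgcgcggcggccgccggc
Nanog: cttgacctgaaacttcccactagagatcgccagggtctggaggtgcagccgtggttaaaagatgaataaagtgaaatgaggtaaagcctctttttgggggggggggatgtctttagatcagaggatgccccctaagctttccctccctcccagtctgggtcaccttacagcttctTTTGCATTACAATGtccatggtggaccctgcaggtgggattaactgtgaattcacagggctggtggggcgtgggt
The capitals join an octamer, the motif of POU factors such as OCT4, to a SOX motif. The octamer was searched as TTTGCAT and the composite as the octamer, any 1 base and then ACAATG, each on both strands, so that a composite match holds an octamer match. In 32851 RefSeq promoters of that length the octamer was present in 4.12% and the composite in 0.00609%. The composite was found in 2 windows, both at Nanog, whose start sites lie close together. Among the 9 members with an entry, the octamer was also found before Sox2 and Zfp42. It was not found in the windows of Tdgf1 or Klf4. Neither window held the exact strings CACCC for KLF factors (52.0% of promoters) or AAGGTCA for ESRRB (4.08%), on either strand. Other forms of these motifs were not searched. A match is a description of the B6 reference, and the cast sequence was not used here.

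Strain of the allele was the first comparison. Reads of the 16 allele libraries, 2 per embryo, were fitted with 1 term for strain and 1 for parental origin across 12565 autosomal genes. Each allele library was scaled on its own. A strain difference of 0 therefore stands near the typical gene, which has more B6 than cast reads, and not at equal reads. In that fit 15.5% of genes differed between cast and B6 at an adjusted p of at most 0.1 (edgeR's quasi-likelihood test with Benjamini-Hochberg adjustment, used throughout), 11.0% toward B6 and 4.45% toward cast. Of the 9 members tested, 1 was called toward B6 (Tdgf1) and 1 toward cast (Klf4). That count stands near the share over all genes. The median absolute strain difference was 0.53 (log2) over the members and 0.51 over all genes, and the signed medians were -0.19 and -0.06.

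Tdgf1 (chr9:110939603-110946158, minus strand, protein-coding) was read mainly from its B6 allele in every embryo. The B6 share was 85.3% in forward embryo 1, 86.4% in forward embryo 2 and 83.4% in forward embryo 3. In the reverse embryos it was 80.8% (embryo 1), 74.1% (embryo 2), 81.9% (embryo 3), 82.4% (embryo 5) and 77.0% (embryo 7). All 8 values lay above the same embryo's B6 share over all genes, whether B6 came from the mother or from the father. Over the embryos, 4456 reads were B6 and 961 cast. The difference was -1.92 (log2, cast against B6, SE 0.28, adjusted p = 3.90e-05, edgeR), a 3.78-fold lower cast level after scaling each allele library. It stayed called in every alternative fit that was run, at -2.24 to -1.86.

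The B6 share of Tdgf1 was also set side by side between the crosses. Its mean was 85.0% ± 1.53 (SD, n = 3) among forward and 79.2% ± 3.57 (SD, n = 5) among reverse embryos, and the ranges did not overlap. Such separation of the B6 share was seen for 8.42% of 10424 genes with reads in all embryos, and for 1 of the 9 members. The exact two-sided permutation test of the shares gave p = 0.0536, where 3 against 5 embryos allow no p below 0.0179. The corresponding parental difference was -0.30 (log2, paternal against maternal; SE 0.27; adjusted p = 0.9999 in edgeR). Annotation lists 2 processed pseudogenes of Tdgf1, which are absent from the table; reads aligning to several places had been removed by the authors.

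Klf4 (chr4:55527143-55532466, minus strand), a zinc-finger factor of the naive network and 1 of the classic reprogramming factors, leaned the other way. Its B6 share was 38.7%, 38.3% and 45.8% in forward embryos 1 to 3. In reverse embryos 1, 2, 3, 5 and 7 it was 38.6%, 50.0%, 39.0%, 36.9% and 45.3%. All 8 values lay below the embryo's own share over all genes, and the crosses overlapped. After scaling each allele library, the cast allele was 1.79-fold higher (log2 0.84, SE 0.27, adjusted p = 0.0442, edgeR). The unscaled reads were 325 cast and 229 B6. Relative to the sampling of reads, embryos varied less in this share than in that of any other member. The variance around each cross's pooled share was 0.725 times that of binomial sampling, a ratio that also depends on how many reads a gene has.

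The Klf4 call depended on embryos and scaling. It was lost without forward embryo 1 (adjusted p = 0.146, edgeR), without forward embryo 2 (0.138) and without reverse embryo 5 (0.104), at log2 differences of 0.81, 0.80 and 0.81. It was also lost when genes with as little as 1 read entered the fit (0.83, adjusted p = 0.1503, edgeR). With 1 library size per embryo in place of 1 per allele the median strain difference of all genes moved from -0.06 to -0.40, and calls from 1386 toward B6 and 559 toward cast to 2251 and 325. Klf4 was then at 0.51 (adjusted p = 0.263, edgeR), which is 0.90 above the median gene, as it was before, and Tdgf1 remained called. When the alleles of each embryo were paired by a term of their own, the call was kept (adjusted p = 0.0187). Over all genes that paired fit called 25.5%, with 15.8% toward B6 and 9.69% toward cast.

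**Figure D1:**
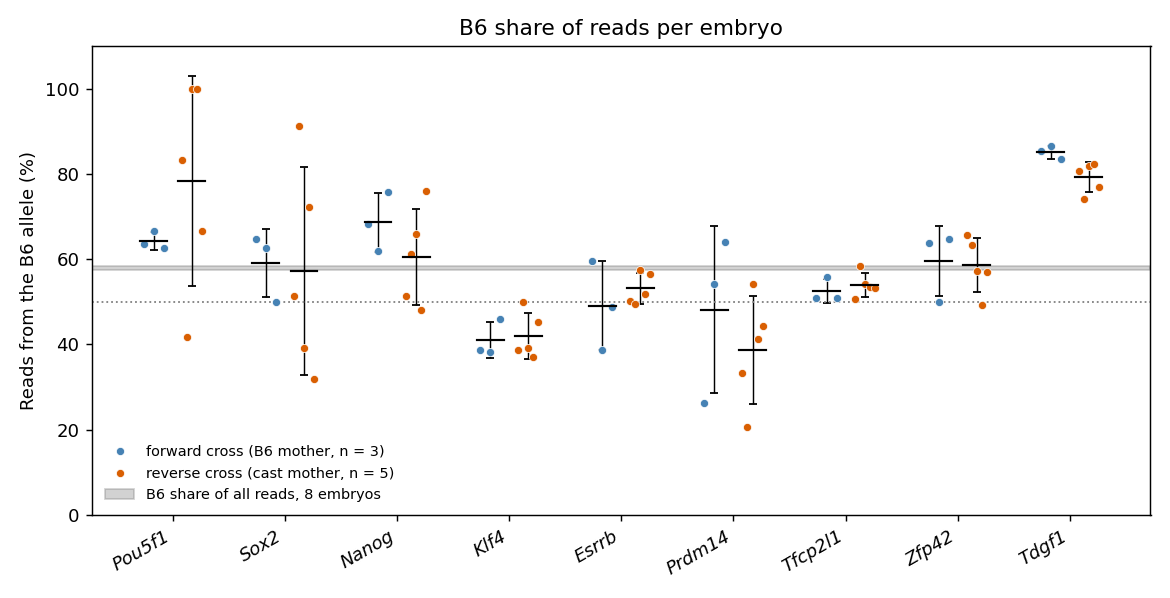
Share of reads from the B6 allele (%) for the 9 tested factors, 1 point per embryo, with blue for the 3 forward and orange for the 5 reverse embryos. Black lines are the mean ± SD, the grey band is the B6 share of all reads (57.4 to 58.3%), and the dotted line is 50%. Every Tdgf1 point lies above the band and every Klf4 point below it, while Pou5f1, Sox2 and Prdm14, which have few reads, scatter widely.

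The core factors did not pass the strain test. Nanog (chr6:122707489-122714633, plus strand), a homeodomain factor needed for epiblast, had B6 shares of 68.3%, 61.8% and 75.7% in the forward embryos. In reverse embryos 1, 2, 3, 5 and 7 the shares were 51.3%, 61.2%, 65.9%, 48.1% and 75.9%. They exceeded the embryo's own share in 6 of 8 embryos and overlapped between crosses. The strain difference was -0.59 (log2, SE 0.38, adjusted p = 0.389, edgeR), and the adjusted p was 0.104 with the term for each embryo. Nanog has 2 annotated processed pseudogenes, neither in the table.

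Sox2 (chr3:34650405-34652461, plus strand), the SOX partner of OCT4, lies inside the long transcript Sox2ot on the same strand, without overlap of exons. Its reads per embryo were 68, 40 and 20 in the forward and 35, 23, 23, 36 and 22 in the reverse embryos. The B6 share ranged from 50.0 to 64.7% in the forward embryos and from 31.8 to 91.3% in the reverse. The highest share, in reverse embryo 2, was 21 of 23 reads (Wilson 95% interval 73.2 to 97.6%). The lowest, in reverse embryo 7, was 7 of 22 (16.4 to 52.7%), so these embryos of 1 cross differed by more than their counting intervals. The intervals cover counting error only, since reads carry no molecular identifiers. The fitted strain difference was -0.19 (log2, SE 0.44, adjusted p = 0.862, edgeR).

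Pou5f1 (chr17:35506018-35510772, plus strand), the POU factor OCT4, had 11, 3 and 16 reads in the forward embryos and 6, 12, 7, 10 and 9 in the reverse. In total 52 reads were B6 and 22 cast. The shares were 62.5 to 66.7% B6 in the forward embryos and 41.7 to 100% in the reverse. All 10 reads of reverse embryo 5 were B6, with a Wilson 95% interval of 72.2 to 100%. Its strain difference was -0.85 (log2, SE 0.75, adjusted p = 0.553, edgeR). An antisense gene overlaps its exons, and the use of strand in counting was not given in the sources used here.

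Among the naive factors other than Klf4, none was called by strain. Tfcp2l1 (chr1:118627945-118685168, plus strand), a target of LIF and STAT3 signalling that sustains naive cells, had the most reads and the narrowest range. Its B6 share was 50.9%, 55.7% and 50.9% in the forward embryos and 50.7%, 58.3%, 54.0%, 53.5% and 53.2% in reverse embryos 1, 2, 3, 5 and 7. The strain difference was 0.14 (log2, SE 0.24, adjusted p = 0.793, edgeR) and turned to -0.19 with 1 library size per embryo. Even so, embryos of a cross varied with 6.16 times the variance of sampling reads alone, the largest such ratio among the members. Over the 8 members with at least 160 reads the median ratio was 3.10, and over 8099 genes 3.74. For the same spread of shares this ratio grows with the number of reads, and genes were not matched for reads.

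Esrrb (chr12:86361117-86521628, plus strand) encodes an orphan nuclear receptor shared by naive cells and trophoblast stem cells. Its B6 share was 59.7%, 38.7% and 48.9% in the forward embryos and 49.4 to 57.5% in the reverse, with a strain difference of 0.35 (log2, SE 0.33, adjusted p = 0.610, edgeR). Prdm14 (chr1:13113457-13127163, minus strand), a PR-domain repressor of differentiation genes, had 19 to 48 reads per embryo and B6 shares from 20.6 to 64.0%. Its value was 0.53 (SE 0.44, adjusted p = 0.526). Zfp42 (chr8:43295063-43306980, minus strand), the REX1 gene, ranged from 49.3 to 65.7% B6 and was at -0.22 (SE 0.28, adjusted p = 0.714). It has 1 annotated processed pseudogene, not in the table. Klf2 (chr8:72319033-72321656, plus strand), the Krüppel-like relative of Klf4, gave no share beyond its single read.

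Parental origin was the second comparison. Over all genes 1.42% differed between the paternal and maternal allele at an adjusted p of at most 0.1, with 1.11% toward the father and 0.318% toward the mother. Of the 9 members 0 were called by edgeR, 0 had an unadjusted p under 0.05, and DESeq2 gave 0 on both counts. With the term for each embryo 3.10% of genes were called, and again 0 members, with 1 (Tdgf1) at an unadjusted p under 0.05. The parental differences, as log2 of paternal against maternal, lay between -0.34 (Prdm14, SE 0.44) and 0.38 (Pou5f1, SE 0.75). With 1 embryo left out they ran from -0.51 to -0.19 for Prdm14 and from 0.14 to 0.81 for Pou5f1. Nanog was at -0.18 (SE 0.38), Sox2 at -0.17 (SE 0.44), Zfp42 at -0.10 (SE 0.28), Tfcp2l1 at 0.02 (SE 0.24), Klf4 at 0.02 (SE 0.27) and Esrrb at 0.08 (SE 0.33). The term for each embryo reduced the standard error of Tdgf1 from 0.27 to 0.11 around the same -0.30 (adjusted p = 0.257, edgeR).

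Summed over the embryos, Tfcp2l1 had 6355 maternal and 6898 paternal reads, Tdgf1 2791 and 2626, Esrrb 753 and 791, and Zfp42 579 and 612. Nanog had 433 and 510, Klf4 279 and 275, Prdm14 160 and 119, Sox2 137 and 130, and Pou5f1 30 and 44. These sums hold 3 forward and 5 reverse embryos, so differences by strain do not cancel in them. Nanog and Zfp42 had more paternal reads, although their fitted parental differences (-0.18 and -0.10) leaned to the mother. For Tdgf1 the pooled counts combined a forward cross with 15.0% ± 1.53 (SD, n = 3) paternal reads and a reverse cross with 79.2% ± 3.57 (SD, n = 5). The direction by parent thus switched with the cross, as the strain difference describes. Only Esrrb and Prdm14 had pooled reads leaning to the same parent in both crosses. No member reached the criterion of parental skew used with these crosses. It asks for 20 or more reads per cross and a significant difference above 0.5 (log2) that favours 1 parent in both crosses. A parental call, which it requires, was made for 1.42% of all genes, so 0 of 9 members stands near that share. The stricter criterion of the study adds a ratio of 70:30 or more in 60% or more of a cross's embryos, for both crosses, and no member had that ratio toward the same parent.

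A separate test asked whether the parental difference was below a 2-fold change. It was passed by 35.6% of all genes and by 7 of 9 members at an adjusted p of at most 0.1 (edgeR). Passing also depends on how many reads a gene has, and genes were not matched for reads. Of other lists, 16 of 29 other pluripotency network genes, 11 of 17 trophectoderm genes and 6 of 15 primitive endoderm genes passed. The adjusted p was 0.0166 for Tfcp2l1, 0.0174 for Klf4, 0.0235 for Zfp42, 0.0366 for Esrrb and 0.0454 for Tdgf1. Nanog (0.0748) and Sox2 (0.0998) passed narrowly. Prdm14 (0.162) and Pou5f1 (0.337) did not, although Prdm14 passed (0.0855) among genes with at least 10 reads in every embryo, where Pou5f1 was not tested. With the term for each embryo 45.3% of all genes and the same number of members passed. Against a 1.5-fold margin 0 members passed, as did 0 of all genes tested, so the members' count there says nothing particular to them. Of the members 3 had an unadjusted p under 0.05 (edgeR), and a parental difference below 2-fold was not resolved further. At the 2-fold margin the members' count fell to 3 without any 1 of the forward embryos and was 6 or 7 without a reverse embryo. Over all genes 4477 passed, and 1615 to 5659 with 1 embryo left out.

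**Figure D2:**
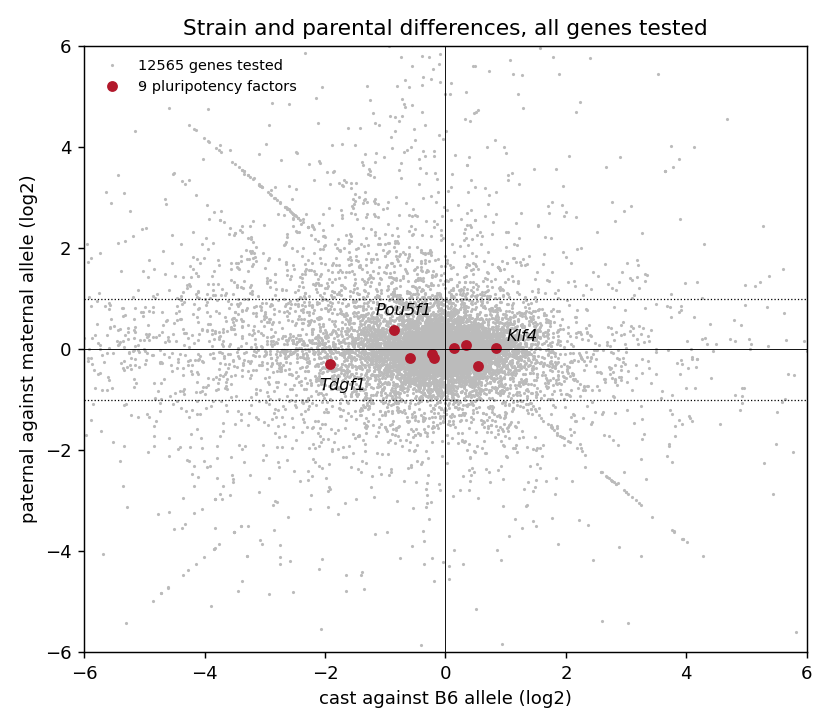
Strain difference (log2, cast against B6, horizontal) and parental difference (log2, paternal against maternal, vertical) of the 12565 genes tested, in grey, with the 9 pluripotency factors in red. Dotted lines mark a 2-fold parental difference. All 9 red points lie between them, from -0.34 to 0.38, while Tdgf1 stands apart on the strain axis at -1.92; 144 genes lie outside the axes.

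Other genes of the pluripotency network came from a list of 35 genes, of which 29 passed the filter of at least 10 reads in an allele library. By strain, 7 were called toward B6 and 4 toward cast, beside 11.0% and 4.45% of all genes. With the term for each embryo 16 were called, beside 25.5% of all genes. The count was 6 without forward embryo 1, 7 without forward embryo 2 and 8 to 13 without any other embryo. The median absolute strain difference was 0.76 (log2), beside 0.51 over all genes.

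The developmental pluripotency-associated genes formed most of the B6-leaning calls. Dppa2 and Dppa4, chromatin-bound partners encoded side by side on chromosome 16, were at -4.18 (log2, SE 0.29) and -1.72 (SE 0.22). Dppa3, a maternal-effect gene also called Stella, was at -1.59 (SE 0.31) with B6 shares of 79.3% ± 0.546 (SD, n = 3) and 78.7% ± 1.27 (SD, n = 5) in the forward and reverse crosses. Dppa5a, an RNA-binding protein gene, was at -2.37 (SE 0.38), and the chromatin factor gene Utf1 at -2.15 (SE 0.69). Etv5, an ETS factor gene downstream of FGF signalling, was at -0.74 (SE 0.24).

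Toward cast were Klf5 (0.76, SE 0.23), a Krüppel-like factor gene of trophectoderm and naive cells, and Tbx3 (1.002, SE 0.25), a T-box factor gene. Bmp4, a growth factor gene, was at 1.23 (SE 0.41) and Morc1, a gene of transposon silencing, at 0.96 (SE 0.36). Klf5 was not called with 1 library size per embryo (0.43, adjusted p = 0.251, edgeR) or without forward embryo 1 (0.62, adjusted p = 0.192). Bmp4 and Morc1 also lost their calls with 1 library size per embryo (adjusted p = 0.176 and 0.251), and Bmp4, Morc1, Utf1 and Etv5 without forward embryo 1 or 2. Dppa2, Dppa3, Dppa4, Dppa5a, Tbx3 and Spp1 stayed called by strain under every alternative run.

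By parental origin 1 of the 29 network genes was called, beside 1.42% of all genes. It was Spp1, the gene of the secreted protein osteopontin (log2 2.05, SE 0.56, adjusted p = 0.088, edgeR). It had 28560 B6 and 184 cast reads and a strain difference of -7.10 (SE 0.67). Forward embryos averaged 97.6% ± 0.350 (SD, n = 3) B6 reads and reverse embryos 99.9% ± 0.0973 (SD, n = 5). The call was lost when any 1 embryo other than reverse embryo 1 was left out (adjusted p up to 0.247) and with DESeq2 (adjusted p = 0.111). With the term for each embryo 2 network genes were called toward the paternal allele, beside 3.10% of all genes called in either direction. In the equivalence test 16 of the 29 passed, beside 35.6% of all genes. That count was 10 to 11 without a forward embryo, 15 to 18 without a reverse embryo and 0, as for all genes, at the 1.5-fold margin. With the term for each embryo 17 passed, beside 45.3% of all genes. Of 4 tested genes of the later, formative or primed epiblast, 1 was called by parent, beside 1.42% of all genes. It was Otx2, a homeobox gene of the postimplantation epiblast, with 43 paternal and 0 maternal reads (adjusted p = 0.012, edgeR). Otx2 fell below the read filter without forward embryo 2 and stayed called without any other embryo. Dnmt3b, a DNA methyltransferase gene, passed the equivalence test.

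**Figure D3:**
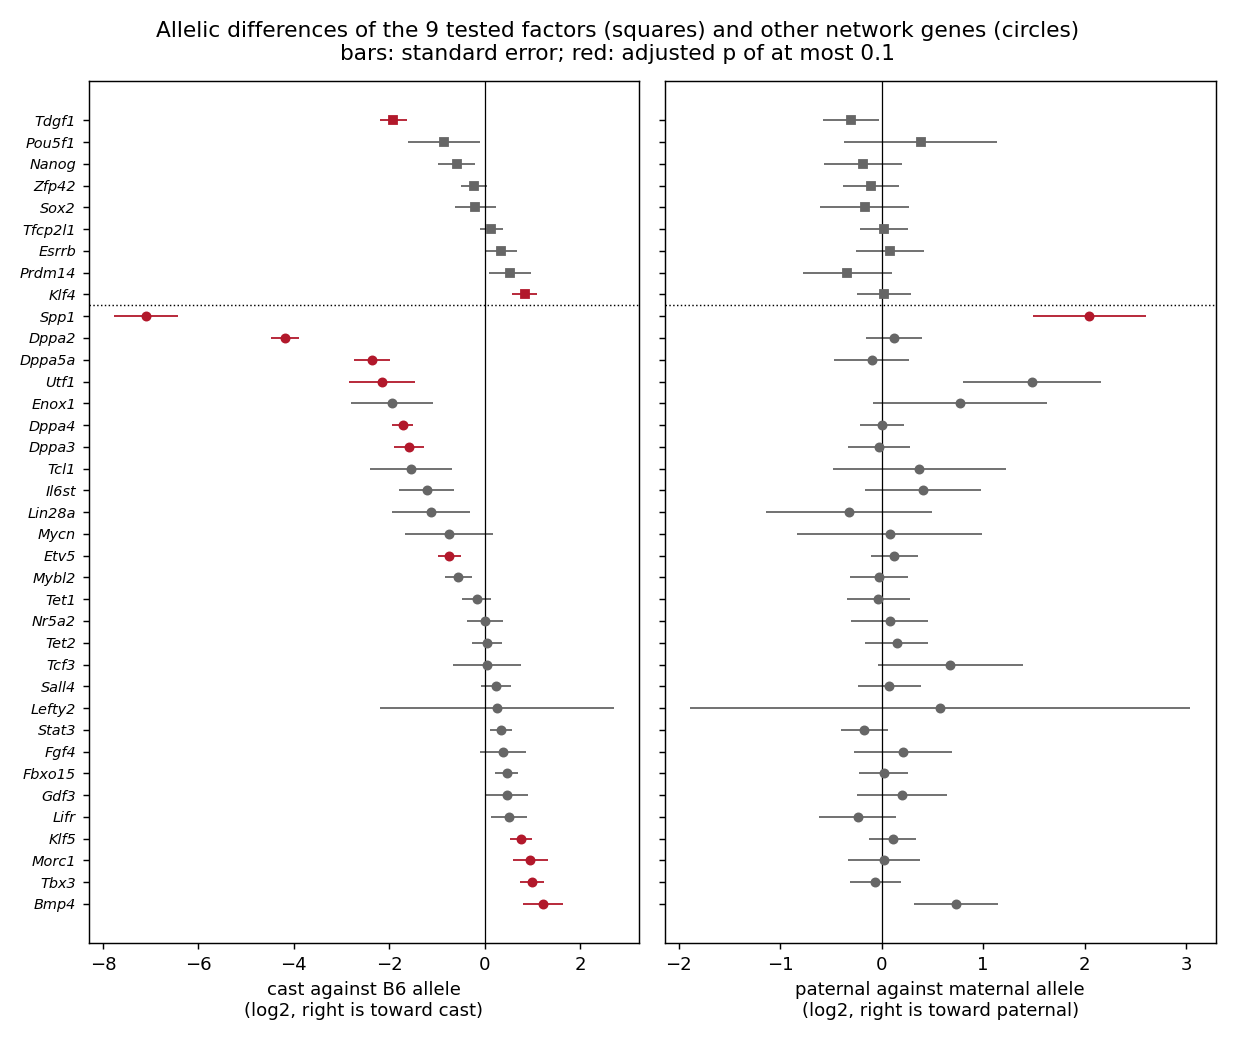
Fitted difference between the cast and B6 alleles (left, log2) and between the paternal and maternal alleles (right, log2) for the 9 factors (squares) and 28 other network genes (circles), with standard errors as bars. Red marks an adjusted p of at most 0.1. Tdgf1, Klf4 and 11 network genes are red on the left, and Spp1 alone is red on the right; Lefty1, with 10 reads, is left out.

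The third comparison set total reads of the 5 reverse embryos against the 3 forward embryos, both alleles together. Of 13078 genes 0.0688% were called, 0.0382% higher in the reverse and 0.0306% higher in the forward cross, and of the 9 members 0 by edgeR and 0 by DESeq2, with 1 (Nanog) at an unadjusted p under 0.05 in each. Levels are in CPM, from both alleles of the embryo. For Nanog they were 61.9, 47.8 and 54.8 in the forward embryos and 105, 129, 86.1, 59.3 and 137 in reverse embryos 1, 2, 3, 5 and 7. Reverse embryo 5 lay within the forward range and the others above it. The fitted difference was 0.93 (log2, reverse against forward; SE 0.34; p = 0.0170, adjusted p = 0.556, edgeR), and the exact two-sided permutation test of the levels gave p = 0.0714.

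Klf4 and Tdgf1 were at lower mean levels in the reverse embryos. Klf4 was at 57.0, 70.3 and 56.4 CPM in the forward embryos and at 55.1, 41.3, 27.4, 48.8 and 50.0 in reverse embryos 1, 2, 3, 5 and 7. Its ranges did not overlap, although reverse embryo 1 came close to the lowest forward value. Ranges of the level did not overlap in 6.45% of all genes. Tdgf1 was at 713, 722 and 471 in the forward embryos and at 366, 307, 609, 281 and 463 in the reverse, and those ranges overlapped. The exact two-sided permutation test gave p = 0.0536 for each, and the fitted differences were -0.47 (SE 0.31, adjusted p = 0.751) and -0.58 (SE 0.37, adjusted p = 0.744; edgeR).

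The other members overlapped between crosses. Tfcp2l1 levels were 973, 1099 and 935 CPM in the forward embryos and 1668, 1494, 826, 1206 and 1378 in the reverse, with a difference of 0.38 (log2, SE 0.31). Esrrb ranged most widely among the well-covered members, from 58.1 in reverse embryo 3 to 303 in reverse embryo 1, with 103 to 146 in the forward embryos. Without reverse embryo 1 its difference of 0.27 (SE 0.41) turned to -0.08. Zfp42 averaged 104 ± 44.4 (SD, n = 3) and 112 ± 19.8 (SD, n = 5) CPM in the forward and reverse embryos. Sox2 averaged 30.7 ± 13.5 and 20.2 ± 5.33, Prdm14 21.1 ± 10.3 and 29.1 ± 7.49, and Pou5f1 7.29 ± 4.98 and 6.43 ± 1.98, in the same order and with the same n. Fitted differences were -0.60 (SE 0.42) for Sox2, 0.49 (SE 0.45) for Prdm14, 0.14 (SE 0.35) for Zfp42 and -0.18 (SE 0.74) for Pou5f1. None of these 4 passed the test.

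**Figure D4:**
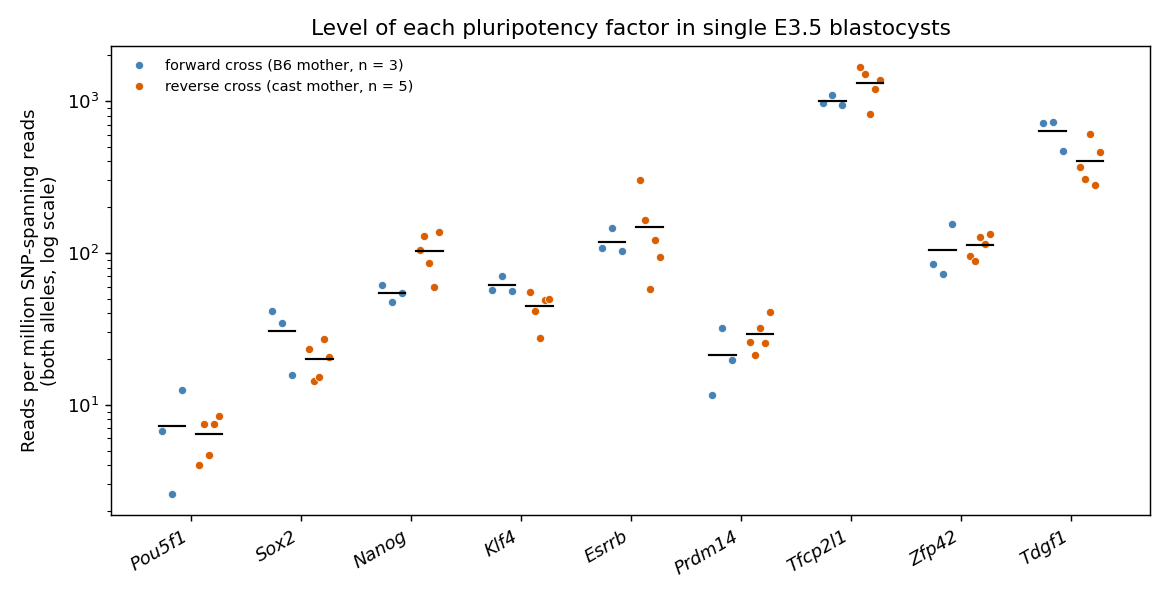
Level of the 9 tested factors in CPM (both alleles, log axis), 1 point per embryo, with blue for forward (n = 3) and orange for reverse (n = 5) embryos and a black line at the mean of each cross. Nanog lies higher in 4 of the 5 reverse embryos than in any forward embryo, and the Klf4 points of the crosses do not overlap. Levels of different genes are not comparable on this axis.

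Summed over the 10 members the level was 1822 to 2228 CPM in the forward embryos and 1787 to 2645 in the reverse. The crosses thus overlapped. Most of each sum was Tfcp2l1 and Tdgf1. Among the reverse embryos, embryo 1 had the highest member sum and the lowest sums of trophectoderm genes (4374) and of the other pluripotency network genes (10041 CPM). The network sum was lower still in forward embryos 1 and 2 (9655 and 9339 CPM). Reverse embryo 3 had the lowest member sum and the highest sums of both other lists (17477 and 16002 CPM). The part of these levels in the members' levels was not tested. Primitive endoderm genes summed to 2428 to 2666 CPM in the forward and 2205 to 2966 in the reverse embryos, and 0 genes of the trophectoderm, primitive endoderm, other pluripotency and formative lists were called between crosses.

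Across embryos the members did not rise and fall together. In 36 pairs of the 9 tested members, Pearson's r of log2 levels over the 8 embryos was above 0 in 15, with a median of -0.10. The highest was 0.80 for Esrrb and Tfcp2l1 and the lowest -0.65 for Tfcp2l1 and Tdgf1. Pou5f1 and Zfp42 were at 0.69, Sox2 and Klf4 at 0.64, and Nanog and Tfcp2l1 at 0.62. The points share embryo, cross, depth and lineage content, so these values are descriptions of 8 embryos. Levels of Pou5f1, with 3 to 16 reads per embryo, and Sox2, with 20 to 68, also carry more counting error.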

How the data were processed

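Single E3.5 blastocysts of reciprocal B6 and cast crosses were profiled with SMART-Seq2, a full-length method for poly(A) RNA. The deposited values are whole-number counts of reads per gene and allele in 16 columns. Per the methods, the authors aligned reads to mm10 with STAR (version 2.5.2b in the submitters' processing notes), dropped reads that aligned to several places, assigned the rest by strain-specific positions with Allelome.Pro, and removed a low-mapping and a shallow embryo. Alignment to the B6 genome can favour B6 reads. The B6 share of all reads was 57.4 to 58.3%, and the part of alignment in it was not tested.

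Columns were joined to embryos by name, and all 16 had a sample. Of 22810 genes, 18285 were placed by GENCODE M21, 3000 by RefSeq and 415 by a synonym. Those left unplaced held 0.815% of reads. Autosomal genes with at least 10 reads in 1 allele library (12565) were fitted with edgeR 4.0.16 (TMM factors, quasi-likelihood test) with terms for strain and parent. Totals per embryo (13078 genes) were fitted by cross. The study's own test was DESeq2 (version 1.42.0 here), run as an alternative. An equivalence test used a margin of 1 (log2). Adjusted p-values (Benjamini-Hochberg) covered all genes tested, with a threshold of 0.1. Single values were compared by exact permutation, and scripts were tested on simulated data. Intervals are 95% Wilson intervals. Promoter shares leave out chromosome 18.

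The alleles of an embryo pair by design. Maternal and paternal deviations correlated at 0.0823 to 0.488 within embryos. The fit with a term for each embryo is given for the members and for many, but not all, counts of the other lists. Other alternatives were 1 library size per embryo, RLE factors, other filters, edgeR's newer dispersion setting, a stricter threshold and each embryo left out.

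The members and gene lists were chosen with earlier results of these data known. The text names all 10 members. From each other list it names genes past the threshold, at most 5 per comparison by p, or the 3 with most reads, and more from the network list, chosen after their values were seen.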

Additional observations from a re-analysis of the deposited data

Results flagged for a closer look

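For Tdgf1 and Klf4 the paternal against maternal difference differed between the crosses, which is what the strain term of the fit tests. The term was -1.92 (log2, cast against B6; adjusted p = 3.90e-05, edgeR) for Tdgf1, with the B6 share above the embryo's own share over all genes in 8 of 8 embryos. It was 0.84 (adjusted p = 0.0442, edgeR) for Klf4, with the share below it in 8 of 8. The 5 reverse embryos were also screened for a single distant value, in the level and in the B6 share of the 9 tested members, with Dixon's critical value of 0.71. No embryo passed it in these 18 groups. Chance alone marks about 1 in 20.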

How the results depend on the processing

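No member was called by parent or between crosses under any alternative. Members called by strain fell from 2 to 1 with 1 library size per embryo, with a filter of 1 read, and without forward embryo 1, forward embryo 2 or reverse embryo 5 (Tdgf1 alone; range 1 to 2). Members passing the equivalence test fell from 7 to 0 at the 1.5-fold margin, as did the 4477 genes, and ranged from 3 to 7 with an embryo left out (all genes 1615 to 5659). With at least 10 reads in every embryo 8 of 8 tested members passed. Under that filter 18 of 21 other network genes, 11 of 15 trophectoderm genes and 8 of 12 primitive endoderm genes passed. The filter drops genes with few reads, and its share over all genes is not given here.

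Over all genes the 179 parental calls became 75 with at least 10 reads in every embryo, 406 with 1 read, 306 with the newer dispersion setting and 389 with a term for each embryo (replicate block). The 1945 strain calls became 1068 and 3207 under the first and last of these, and 1206 to 2453 with an embryo left out. The 9 calls between crosses became 136 with DESeq2, 0 with 10 reads in every embryo, 143 with 1 read, 28 with the newer setting and 3 to 160 with an embryo left out.

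The replicate numbers shared by the crosses name no common litter or day. Their deviations correlated at 0.126, 0.00171 and 0.103. Blocking on them gave 21 calls between crosses and 0 members.

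Tfcp2l1 by strain turned from 0.14 to -0.19 with 1 library size per embryo. Leaving out embryos turned uncalled values that lay near 0, and the cause was not tested. By parent the ranges were -0.0854 to 0.224 for Esrrb, -0.0347 to 0.0942 for Klf4, -0.0217 to 0.0815 for Tfcp2l1, -0.201 to 0.00975 for Zfp42 and -0.337 to 0.00696 for Sox2. Those that kept their sign were 0.142 to 0.812 for Pou5f1, -0.509 to -0.188 for Prdm14, -0.335 to -0.0749 for Nanog and -0.352 to -0.247 for Tdgf1. By strain Sox2 ranged from -0.365 to 0.00139, and between crosses Zfp42 from -0.0739 to 0.562, Pou5f1 from -0.570 to 0.474 and Esrrb from -0.0769 to 0.452. Klf2, with 1 read, could not be tested at this depth.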

Other observations

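The level most like that of the members together was sought among 5469 autosomal genes with at least 400 reads, by Pearson's r with the mean standardised log2 level of the 9 tested members over the 8 embryos. Among the 10 highest were Pxk (r = 0.95, a kinase-like sorting nexin gene), Gpatch2 (0.91), Wdr25 (0.91), Rnf213 (0.89, a ubiquitin ligase gene) and Mad1l1 (0.89, a spindle checkpoint gene). With 8 embryos and so many genes compared, these values only describe these embryos, which share depth, cross and lineage content.

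In the other lineages of the blastocyst, allelic differences by strain were also present. Of 17 tested trophectoderm genes 3 were called toward B6 and 1 toward cast, beside 11.0% and 4.45% of all genes, and 7 and 4 with the alleles of each embryo paired, beside 15.8% and 9.69%. With 1 embryo left out 2 to 7 were called by strain. In the parental equivalence test 11 passed, beside 35.6% of all genes, and 5 without any 1 of the forward embryos. Krt8, a keratin gene of the outer epithelium, was at -1.73 (log2, SE 0.44) and the tight-junction gene Cldn4 at 2.78 (SE 0.49). Of 15 tested primitive endoderm genes 2 were called toward B6, among them Serpinh1, a collagen chaperone gene (-3.39, SE 0.60), and 1 toward cast, the laminin gene Lamb1 (0.97, SE 0.28). The paired fit called 3 and 4, and 1 in all was called without forward embryo 1. In the equivalence test 6 passed, beside 35.6% of all genes, and 10 in the paired fit, beside 45.3%. By parent the unpaired edgeR fit called 0 genes of either list, beside 1.42% of all genes. The paired fit called 2 trophectoderm genes and 1 primitive endoderm gene toward the paternal allele, beside 3.10% of all genes called in either direction.

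Of 7 tested macrophage genes 2 were called toward the maternal allele, Lyz2 (1144 maternal and 5 paternal reads) and C1qb (279 and 1), and the same 2 were called higher in the forward cross. By strain 3 were called toward B6. With the term for each embryo 1 was called toward the maternal allele, beside 3.10% of all genes called by parent. That fit called 1 toward B6, beside 15.8% of all genes. Without forward embryo 1, which held most macrophage reads (1445), 2 were tested by allele, with 0 called by parent, 1 toward B6 and 0 between crosses. Of 6 tested oocyte genes and 1 tested gene of the cumulus cells around the oocyte, 0 were called in any comparison (edgeR). Of the oocyte genes 1 was called toward B6 with 1 library size per embryo, 1 toward the maternal allele with the newer dispersion setting and 1 in each of these directions with a filter of 1 read.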
